A study of Macaca mulatta with 6 samples.

Results

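The RNA cargo examined here consists of the genes that were counted in both extracellular vesicle (EV) libraries of a study of rhesus macaque plasma. Members were chosen by their EV counts: a gene entered with at least 1 count in the EV library of each animal. There were 113 such genes, of 1058 with a count in either EV library (10.7%) and of 4406 with a count in any deposited column. They were compared with the counts that the authors had summed for each animal. Beside them were set 41 genes that had 0 counts in both EV libraries but 20 or more in both sums. A gene not listed among the EV counts was taken as 0 in both EV libraries. The study separated the plasma of 2 macaques on a gradient into lipoprotein, EV and protein fractions, with 1 library per fraction and animal. Samples were treated with proteinase K, RNase and DNase, and no other treatment, age or stress history was given for either animal. Which libraries entered each sum was not stated, so the sums are not known to be independent of the EV libraries or of each other.

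EVs are membrane-bound particles that cells shed from their surface or release when endosomes fuse with it. Their membrane shields enclosed RNA from nucleases, whereas RNA outside vesicles travels in plasma on lipoproteins or bound to proteins. Vesicle RNA is known to hold mostly fragments and small RNAs, with messenger RNA as a minor part, and platelets, blood cells, endothelium and liver are known sources of vesicles in plasma.

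The EV libraries were shallow and unequal, with total gene counts of 10397 for animal A (2615337 input reads) and 2842 for animal B (913091 reads). Of the input reads, 24.26% in A and 23.38% in B mapped uniquely, and 18.15% and 26.77% mapped to several places. Gene counts were thus a small part of the mapped reads, and where the other reads went was not tested. The sums held 62794 and 54534 counts. A gene at 0 could still make up 0.0289% of the EV library of animal A and 0.106% of that of animal B, taking 3 counts as the limit. Intervals are 95% exact (Clopper-Pearson). Intervals and limits cover counting error only, since the counts may include PCR copies. With 1 EV library per animal no test of a single gene across animals was made, and the differences described compare libraries.

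The shared genes were few but carried most of the EV counts. They made up 14.2% of the genes detected in the vesicles of animal A and 30.1% of those of animal B, and held 80.6% and 85.3% of the counts. Most of them stood at the edge of detection. The median member had 2 counts in each library, 66 members had a single count in at least 1 library, and 25 had a single count in both. The 69 members with fewer than 5 counts in both libraries together held 1.19% of the EV counts in A and 3.80% in B. Just outside the rule lay 945 genes with counts in 1 EV library alone, with up to 176 counts in A and up to 20 in B. A single count weighs more in the shallower library, and 90 members had a higher EV share in animal B and 23 in animal A.

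Only 11 members had 10 or more counts in both EV libraries, and 5 of these were features without a gene symbol. ENSMMUG00000054358 had 3689 counts in A and 1383 in B, and ENSMMUG00000052127 had 1187 and 286. Both features led both libraries, and together they held 46.9% and 58.7% of the EV counts. ENSMMUG00000018256 had 28 counts and 19, ENSMMUG00000052285 had 22 and 12, and ENSMMUG00000051300 had 126 and 101. The 6 named genes at this level were CTNNB1, SHISAL2B, KCNT1, CCRL2, STK32B and ADRA1B. Of these, SHISAL2B had a higher EV share in animal A, with 179 counts and 15, and the other 5 had a higher share in animal B.

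**Figure D1:**
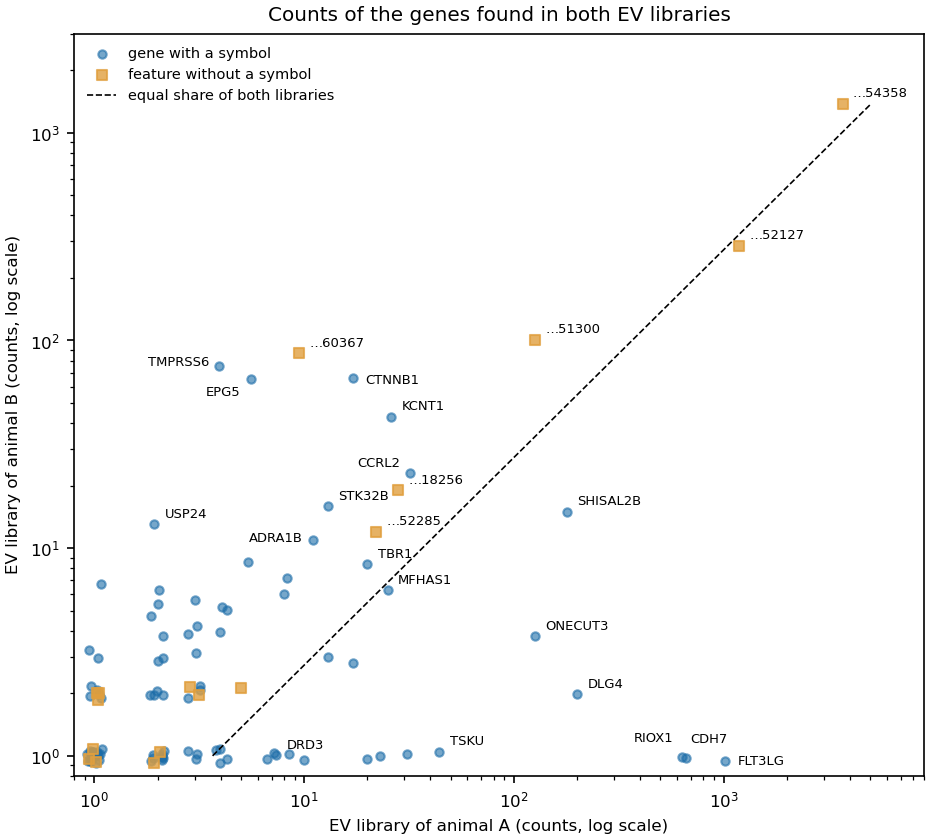
Counts of the 113 shared genes in the EV library of animal A (x axis) and animal B (y axis), both on log scales, with counts under 10 shifted slightly so that points do not hide each other; the dashed line marks equal shares of both libraries and labels starting with dots give the last digits of an identifier. ENSMMUG00000052127 (1187 and 286) lies near the line, while FLT3LG (1017 and 1) and TMPRSS6 (4 and 75) lie far from it on opposite sides.

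For each member the share of the EV library was divided by its share of the summed counts of the same animal. A ratio of 1 means that the gene was as prominent in the EV library as in the sum. If an EV count is part of the sum, the ratio cannot exceed 6.04 in animal A or 19.2 in animal B, because the EV libraries came to 16.6% and 5.21% of the sums. Ratios of A and B are therefore not on one range. The rule itself favours high ratios, since a gene with few summed counts enters only if some of them are in the EV libraries, so the counts that follow describe the list and support nothing beyond it.

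A summed count was present for 110 of the 113 members. Of these, 77 had a ratio above 1 in both animals, 8 had one below 1 in both, 10 were above in A and below in B, and 15 were below in A and above in B. The median ratio on the log2 scale was 1.01 in A and 2.29 in B. Over all genes with both an EV and a summed count these medians were 2.18 (n = 778) and 4.26 (n = 363). Of those genes 47.9% in A and 52.6% in B had an EV count equal to the sum and so sat at the highest possible ratio, which makes these medians no measure of where other genes lay. A ratio of 2 or more in both animals was found for 51 members. The same held for 10% of the 509 genes with a count in either EV library and in both sums, and all of those were members, because the call needs a count in both libraries. A ratio of 0.5 or less in both was found for 1 member, DRD3, against 2.75% of the 509 genes. Among the 38 members with 20 or more counts in both sums, 5 were at 2-fold or more above in both animals and 1 was at 2-fold or more below. Over all 103 genes at that summed level, 4.85% were 2-fold above and 48.5% were 2-fold below, the latter including genes with no EV count. The median log2 ratio of the 38 members was 0.25 in A and 0.78 in B. All genes at that level with an EV count had medians of 0.08 (n = 61) and 0.64 (n = 39).

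**Figure D2:**
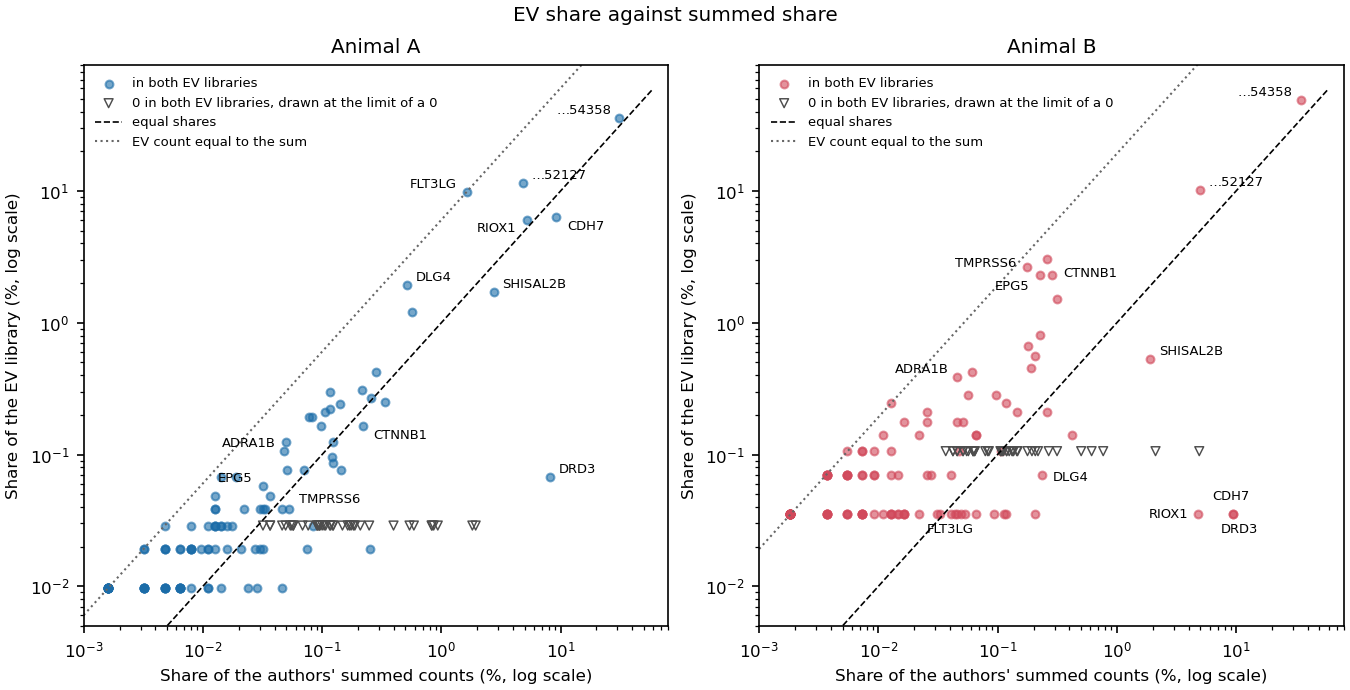
Share of the EV library against share of the authors' summed counts, in percent on log scales, for animal A and animal B; filled points are shared genes, open triangles the 41 genes at 0 in both EV libraries drawn at the limit of a 0 count, the dashed line marks equal shares and the dotted line an EV count equal to the sum. DRD3 lies far below the dashed line in both animals, whereas FLT3LG lies almost on the dotted line in animal A (98.1% of its sum) and TMPRSS6 near it in animal B (78.1%).

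Counting error was judged from the interval of the EV count as a part of the sum. The interval lay wholly above a ratio of 1 for 21 members in A and 41 in B, where 2.20% of 3634 and 3.01% of 2887 genes with a summed count did so. It lay wholly below 1 for 6 members in each animal, against 2.09% and 1.11% of those genes. Intervals were not adjusted for the number of genes. A gene at 0 in an EV library cannot have an interval above 1, and the rule excludes such genes from the members. The higher part of members above 1 is thus no result about them. Intervals above 1 in both animals belonged to 7 members, which were ENSMMUG00000054358, ENSMMUG00000052127, ENSMMUG00000052285, CCRL2, ADRA1B, TBR1 and RBM12B. Of these, RBM12B rested on sums of only 3 in A and 2 in B, equal to its EV counts. Intervals below 1 in both animals belonged to CDH7, SHISAL2B and DRD3.

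**Figure D3:**
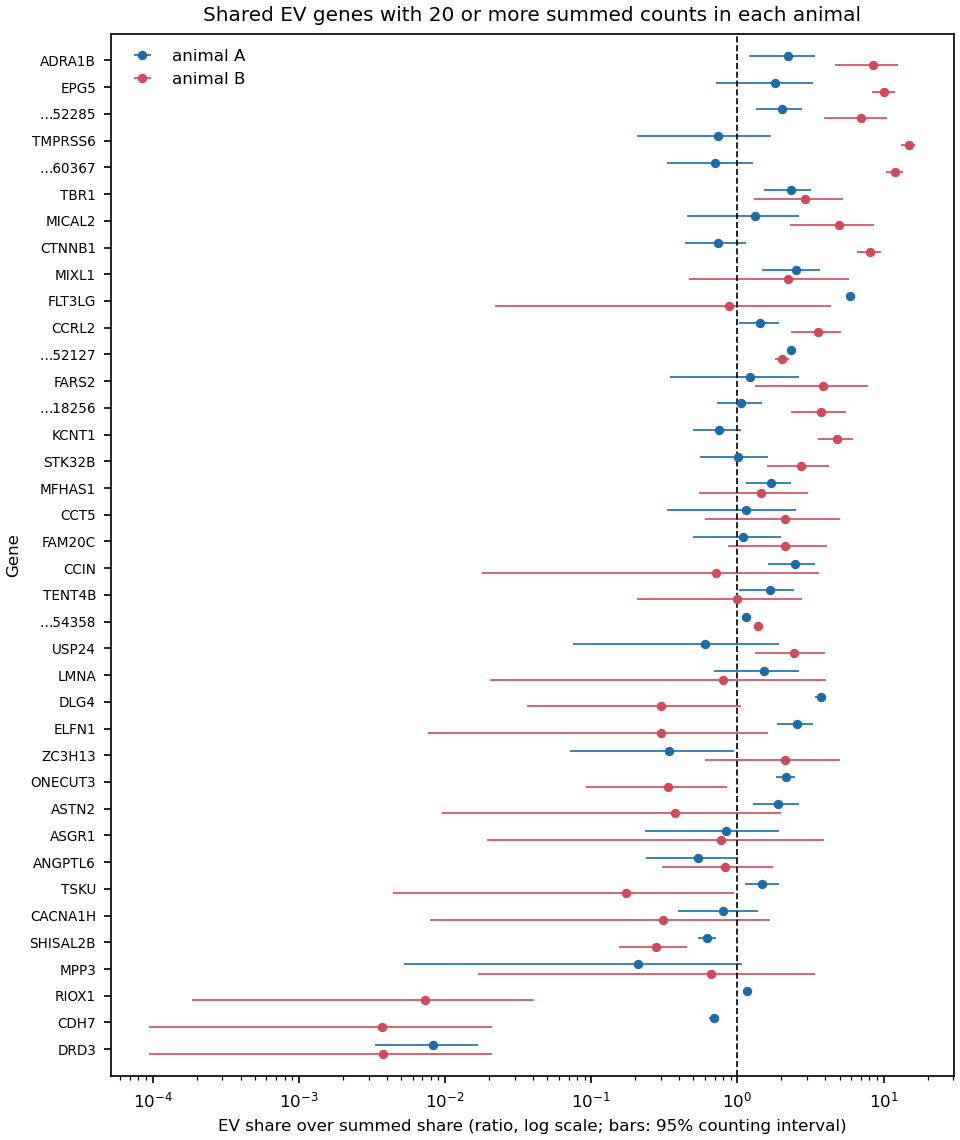
Ratio of EV share to summed share on a log scale, with 95% counting intervals, for the 38 shared genes with 20 or more counts in both sums, ordered by the mean log2 ratio; blue is animal A, red is animal B and the dashed line marks a ratio of 1. ADRA1B and TBR1 lie above the line in both animals, DRD3 lies below it in both, and RIOX1 and CDH7 have animal B far to the left of animal A.

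Receptor, channel and membrane transport genes formed a group of 15 members with 283 EV counts in A and 112 in B. They held 2.72% and 3.94% of the EV counts but 12.0% and 12.1% of the sums. This direction rested on 1 gene in animal B. Without DRD3 the other 14 genes held 2.65% of the EV counts and 3.82% of the sum in A, but 3.91% and 2.74% in B. By gene, 9 of the 15 lay above 1 in both animals and 4 below. DRD3, the dopamine D3 receptor, had 7 EV counts in A and 1 in B against sums of 5139 and 5131. Its ratio was 0.00823 (interval 0.00331 to 0.0169) in A and 0.00374 (9.47e-05 to 0.0208) in B, so the EV share was far below the summed share in both. The sums of DRD3 were nearly equal in the 2 animals and are not known to be independent. Its 2 ratios are therefore not known to be separate observations. SHISAL2B, a predicted membrane protein, followed with ratios of 0.623 (0.539 to 0.716) and 0.277 (0.155 to 0.454). ADRA1B, the alpha-1B adrenergic receptor for noradrenaline and adrenaline, had 11 EV counts in each library and sums of 30 and 25. Its ratios were 2.21 (1.20 to 3.39) and 8.44 (4.68 to 12.5), so the adrenergic and the dopamine receptor lay on opposite sides of equal shares in both animals. CCRL2, an atypical receptor that binds the chemoattractant chemerin, had 32 counts and 23, with ratios of 1.43 (1.02 to 1.92) and 3.56 (2.33 to 5.09).

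Ion channel genes did not lie on one side. KCNT1, a sodium-activated potassium channel, had 26 EV counts in A and 43 in B and ratios of 0.748 (0.498 to 1.06) and 4.77 (3.57 to 6.14). CACNA1H, a low-voltage-activated calcium channel, had 10 and 1 and ratios of 0.795 (0.392 to 1.38) and 0.309 (0.00783 to 1.66). ASIC4, of the acid-sensing channel family, had 3 counts in each library of sums of 11 and 7, with ratios of 1.65 (0.364 to 3.68) and 8.22 (1.90 to 15.7). TMEM175, a lysosomal ion channel, had 2 EV counts and 1 against sums of 157 and 17. Its ratio was 0.0769 (0.00934 to 0.273) in A and 1.13 (0.0286 to 5.51) in B, the latter too imprecise to place. ASGR1, a subunit of the hepatocyte receptor that clears desialylated glycoproteins, had 4 and 1 EV counts of 29 and 25, below the summed share in both animals with intervals that included 1. The other 6 genes of the group had 1 to 3 EV counts per library. They were KCNAB2, a potassium channel beta subunit, JPH3 of junctional membrane complexes, CLCA1, the sarcoplasmic reticulum gene SRL, GPRC5B and the mitochondrial carrier SLC25A34.

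Cell surface, adhesion and junction genes numbered 15, with 950 EV counts in A and 86 in B. They held 9.14% and 3.03% of the EV counts against 10.4% and 10.3% of the sums, which turned to 2.80% and 2.99% against 1.12% and 0.880% without CDH7. CDH7, a cadherin that joins cells in a calcium-dependent manner, had 659 and 1, against sums of 5798 and 5145. Its ratio was 0.686 (0.638 to 0.738) in A and 0.00373 (9.44e-05 to 0.0208) in B. CTNNB1, or beta-catenin, which links cadherins to actin and carries Wnt signals, went the other way between the libraries, with ratios of 0.739 (0.440 to 1.14) in A and 8.07 (6.57 to 9.63) in B. DLG4, the postsynaptic scaffold PSD-95, had 200 EV counts of a sum of 326 in A and 2 of 128 in B, with ratios of 3.71 (3.37 to 4.03) and 0.30 (0.0364 to 1.06). ELFN1, a synaptic leucine-rich repeat protein, had 31 of 73 and 1 of 64, and ASTN2, an astrotactin of neuronal migration, had 23 of 73 and 1 of 51. In DLG4, ELFN1 and ASTN2 the EV count was high in animal A alone. MPP3, a membrane scaffold, had 1 count in each EV library and the same sum of 29 in both animals.

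The remaining surface genes described were sparse. CD9, a tetraspanin used as a vesicle marker, had 2 counts in each EV library and a sum of 3 in each animal. TSPAN6, another tetraspanin, and the polarity scaffold DLG5 had 1 count in each library and a sum of 1. NLGN3, a neuroligin that bridges synapses, had 3 and 2, and PTPRK, a receptor tyrosine phosphatase, had 2 of 8 and 4 of 12, with ratios of 1.51 (0.192 to 3.93) and 6.4 (1.90 to 12.5). CLDN14 (a claudin of tight junctions), ATRN and MXRA8 had 1 to 4 counts.

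Secreted factors numbered 4 and were dominated by FLT3LG, the cytokine that drives dendritic cell development. FLT3LG had 1017 EV counts of a sum of 1037 in animal A and 1 of 22 in animal B. Outside the EV counts its sums held 20 and 21 counts. If the EV count is part of the sum, the excess in animal A lay in the EV library. Its ratio of 5.92 (5.86 to 5.97) in A was close to the highest value possible. TSKU, a secreted leucine-rich proteoglycan, had 44 of 179 in A and 1 of 111 in B. ANGPTL6, an angiopoietin-like hepatokine, had 8 of 90 and 6 of 140 and lay below 1 in both animals, with intervals of 0.237 to 1.01 and 0.305 to 1.75. AMH, the anti-Müllerian hormone, had 1 of 18 in each animal.

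Transcription and chromatin genes were the largest named group, with 16 members, 813 EV counts in A and 40 in B. They held 7.82% of the EV counts and 6.01% of the sum in A, and 1.76% and 0.822% without RIOX1. In B they held 1.41% of the EV counts and 5.58% of the sum, which turned to 1.37% and 0.750% without RIOX1. RIOX1, a histone demethylase and ribosomal oxygenase, had 630 EV counts in A and 1 in B. ONECUT3, a homeodomain factor, had 126 and 4. TBR1, a T-box factor of cortical projection neurons, had 20 EV counts of 52 in A and 8 of 53 in B. Its ratios were 2.32 (1.53 to 3.20) and 2.90 (1.30 to 5.29), and the EV count came to 38.5% of the sum in A and 15.1% in B. MIXL1, a homeobox factor of early endoderm and mesoderm, had 13 of 31 and 3 of 26, with ratios of 2.53 (1.48 to 3.68) and 2.21 (0.469 to 5.79). SCRT1, a neuronal repressor, had 4 of 19 and 5 of 28.

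Several developmental regulators had a few counts in each library. The HOXB cluster contributed HOXB7, with 2 EV counts of 6 in A and 5 of 9 in B, and HOXB9, with 2 of 5 and 3 of 4. FOXE3, a forkhead factor of the lens, had 2 of 19 and 1 of 36 and was the member of this group below 1 in both animals. Its intervals of 0.0786 to 2.0 in A and 0.0135 to 2.79 in B included 1. MYOG, the muscle factor myogenin, TP73, a p53 relative, the zinc finger genes ZNF213, ZNF280D and ZNF385A, the corepressor BCORL1, the histone demethylase KDM5A and ELOC, the elongin C subunit, had 1 to 4 counts. Of the 16 genes, 13 lay above 1 in both animals and 10 were 2-fold above in both, mostly on sums of under 10 counts.

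Kinase and intracellular signalling genes numbered 11. STK32B, a serine/threonine kinase, had 13 EV counts of 78 in A and 16 of 113 in B, with ratios of 1.01 (0.555 to 1.62) and 2.72 (1.60 to 4.22). MFHAS1 had 25 of 89 and 6 of 79, with ratios of 1.70 (1.15 to 2.33) and 1.46 (0.545 to 3.03), and FAM20C, the kinase that phosphorylates secreted proteins, had 8 of 44 and 7 of 64. WNK1, which controls salt transport, had 7 of 9 in A and 1 of 3 in B, and the tyrosine kinase SRC had 4 of 8 and 1 of 2. AXIN2, a negative regulator of Wnt signals, had 2 of 4 and 1 of 2. TAOK2, SGK3, ARHGAP35, INPP5B and CDK10 had 1 or 2 counts. The 10 members of the group with a ratio lay above 1 in both animals, where 77 of all 110 members did. Most of their intervals included 1. In animal A only those of MFHAS1 and WNK1 lay wholly above 1, and that of FAM20C ran from 0.495 to 1.98. In animal B only those of STK32B and INPP5B lay wholly above 1, and no member of the group had such an interval in both animals. CDK10, at 0 in both sums, had no ratio.

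Genes of vesicle trafficking and autophagy numbered 6, and all 6 lay above 1 in both animals, as did 70.0% of all members with a ratio. EPG5, which tethers autophagosomes to lysosomes, had 6 EV counts of 20 in animal A and 65 of 123 in animal B, with ratios of 1.81 (0.718 to 3.28) and 10.1 (8.37 to 11.9). NCOA4, the ferritin autophagy receptor, had 3 of 8 and 4 of 6. AP3D1, an adaptor subunit of lysosomal sorting, had 7 of 12 and 1 of 6. The clathrin adaptor GGA1, the exocyst subunit EXOC2 and the membrane-scission GTPase DNM1 had 1 to 3 counts. Apart from EPG5, each of these rested on 12 or fewer summed counts per animal.

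Genes of protein folding, cleavage and turnover numbered 6 and had 15 EV counts in A and 100 in B. TMPRSS6, the liver protease matriptase-2 that lowers hepcidin, had 4 of 33 in A and 75 of 96 in B. Its ratio was 0.732 (0.206 to 1.70) in A and 15.0 (13.1 to 16.5) in B. USP24, a deubiquitinase, had 2 of 20 and 13 of 103, and CCT5, a subunit of the chaperonin that folds actin and tubulin, had 4 of 21 and 4 of 36. BIRC6 and the mitochondrial protease LONP1 had 1 count in each library. UBXN8, which takes part in degradation at the endoplasmic reticulum, had 3 EV counts in A and 6 in B but 0 in both sums.

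RNA processing and translation genes numbered 7. TENT4B, a poly(A) polymerase, had 17 of 62 and 3 of 58. ZC3H13, a subunit of the RNA methylation complex, had 3 of 53 and 4 of 36, with ratios of 0.342 (0.0714 to 0.946) in A and 2.13 (0.597 to 5.0) in B. FARS2, the mitochondrial phenylalanine tRNA synthetase, had 4 of 20 and 5 of 25, the same part of its sum in each animal. Its ratios still differed, at 1.21 (0.346 to 2.64) in A and 3.84 (1.31 to 7.81) in B, because the library totals differ. RBM12B had EV counts equal to its sums, 3 in A and 2 in B. PATL1, EIF3B and QARS1 had 1 or 2 counts.

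Of 9 metabolic genes, NDOR1, a diflavin reductase, had 2 of 10 in A and 6 of 14 in B. RRM2B, a ribonucleotide reductase subunit, had 3 of 8 and 2 of 15, with ratios of 2.26 (0.515 to 4.56) and 2.56 (0.318 to 7.76). LANCL1, SERAC1, DIP2B, the lipolysis cofactor ABHD5, COX4I2 of respiratory complex IV, hexokinase HK2 and PTGR3 had 1 or 2 counts per library. The 7 cytoskeletal, lamina and other genes were led by CCIN, or calicin of the sperm head, with 20 of 49 and 1 of 27, MICAL2, an actin oxidoreductase, with 5 of 23 and 8 of 31, and LMNA, encoding lamins A and C, with 8 of 32 and 1 of 24. FAM186B had 2 of 47 and 5 of 14, CCDC61 had 1 of 2 and 7 of 7, and TRIOBP and KCTD19 had 1 or 2 counts.

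**Figure D4:**
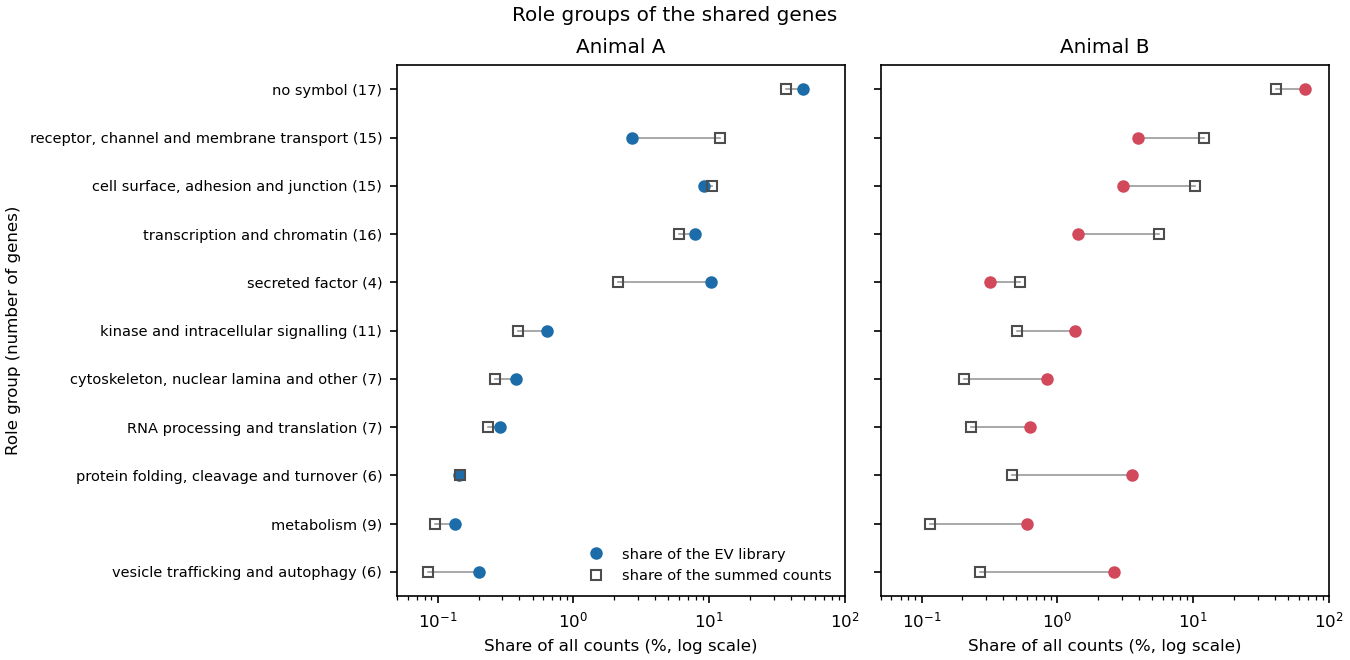
Share of the EV library (filled circles) and of the summed counts (open squares) held by each role group, in percent on a log scale, for animal A and animal B; the number of genes stands after each group name. Receptor and channel genes held less of the EV library than of the sum in both animals (2.72% against 12.0% and 3.94% against 12.1%), which turns to more in animal B without DRD3 (3.91% against 2.74%), and the secreted factors held more in animal A (10.3% against 2.11%, or 0.510% against 0.457% without FLT3LG).

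The 17 members without a symbol held 48.9% of the EV counts in A and 67.0% in B, against 36.7% and 40.6% of the sums. ENSMMUG00000054358 had ratios of 1.14 (1.10 to 1.17) and 1.39 (1.32 to 1.46), and ENSMMUG00000052127 had 2.34 (2.23 to 2.44) and 2.03 (1.81 to 2.26). ENSMMUG00000060367 had 9 counts of 77 in A and 87 of 140 in B, higher in B as were TMPRSS6 and EPG5. ENSMMUG00000018256 had 28 of 160 and 19 of 98, with ratios of 1.06 (0.722 to 1.47) and 3.72 (2.32 to 5.49), and ENSMMUG00000052285 had 22 of 66 and 12 of 33, with ratios of 2.01 (1.34 to 2.78) and 6.98 (3.91 to 10.5). The other 11 unnamed features had 1 to 5 EV counts per library and lay above 1 in both animals. ENSMMUG00000051300, with 126 and 101 EV counts, was listed at 0 in both sums. The name the authors gave to the sums holds the word sense and that of the EV counts names no strand. The 2 may thus have been counted differently, which was not tested. The name of the sums also holds the words ev and all, which does not settle which libraries were summed. Zeros in both sums were also found for UBXN8 and CDK10, which made 3 of the 113 members. Over the 1058 genes with an EV count, 2.55% were at 0 in both sums. For all other members the EV count did not exceed the sum in either animal.

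Taking each EV count as part of its sum, the rest was compared between the animals for the 110 members with a summed count. It was 0 in both animals for 12 members, among them RBM12B, SRL, ZNF280D, TSPAN6 and KDM5A, each with 1 to 3 EV counts per library. It was equal in both animals for 27 members (24.5%), where 40.0% of 508 genes were equal, those with a count in either EV library and in both sums less 1 gene whose EV count exceeded a sum. Among the 38 members with 20 or more in both sums, 8 (21.1%) differed by 2 counts or fewer, against 33.0% of 103 genes at that level. These were FLT3LG, DRD3, DLG4, CCRL2, ASTN2, LMNA, ASGR1 and MPP3. ASTN2 had 50 and 50 left, CCRL2 had 103 and 101, LMNA had 24 and 23, ASGR1 had 25 and 24 and DRD3 had 5132 and 5130. A tolerance of 2 counts leaves out large genes that differed little for their size. CDH7 had 5139 and 5144 left, RIOX1 had 2629 and 2632 and ONECUT3 had 228 and 224. Whether the sums of the 2 animals share counts was not tested. The 7 members with 20 or more EV counts in A and 1 in B held 2424 EV counts in A. They were FLT3LG, CDH7, RIOX1, TSKU, ELFN1, ASTN2 and CCIN, and each kept at least 20 counts in the sum of A outside the EV library. Other members differed outside the EV counts as well, such as USP24 with 18 and 90, EPG5 with 14 and 58, TMEM175 with 155 and 16 and FAM186B with 45 and 9.

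**Figure D5:**
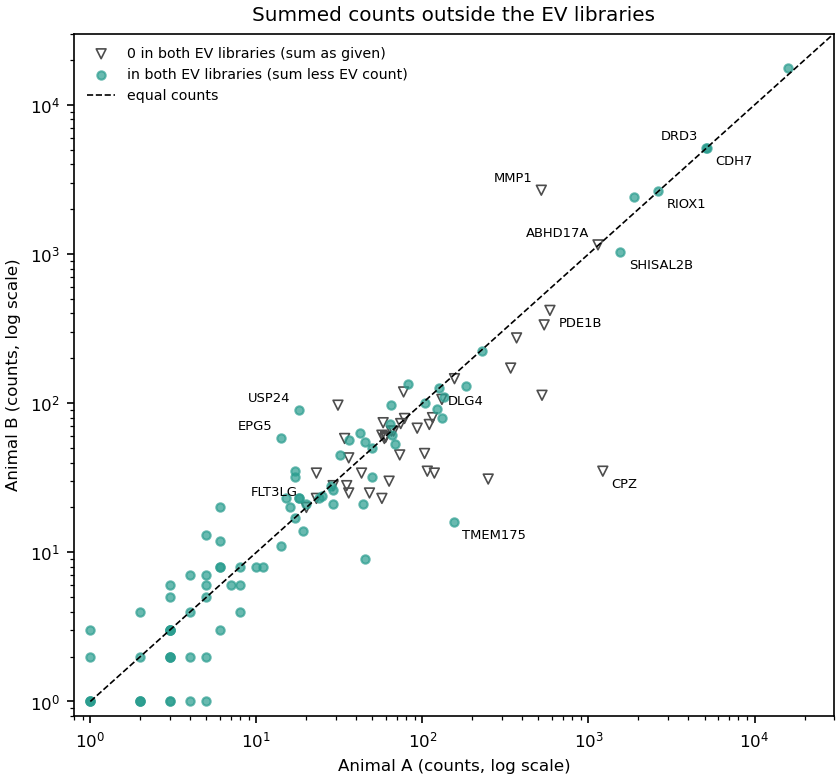
Counts in animal A (x axis) and animal B (y axis) on log scales, for shared genes as the sum less the EV count (filled circles) and for the 41 genes at 0 in both EV libraries as the sum (open triangles); genes with nothing left in at least 1 of the animals are not drawn and the dashed line marks equal counts. DRD3, CDH7, RIOX1, DLG4 and FLT3LG lie on the line, and CPZ, MMP1 and TMEM175 lie far from it.

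The 41 genes at 0 in both EV libraries were 39.8% of the 103 genes with 20 or more counts in both sums. Of the other 62, 38 were members, 23 had an EV count in animal A alone and 1 in animal B alone. The 41 genes held 7630 summed counts in A (12.2%) and 7023 in B (12.9%), and 34 of them had a symbol. At their summed shares they would have had 1260 counts in the EV library of A and 366 in that of B. Their zeros were fixed by the rule, so the values that follow describe how far the EV libraries fell short of the sums. Against the limit of 3 counts, the EV share was at least 1.10-fold to 67.3-fold lower than the summed share in animal A for all 41. In animal B a bound could be given for 24 of them and ran from 1.01-fold to 46.5-fold, because the other 17 had summed shares under the limit. At the edge of the rule, TG stood at exactly 20 in both sums, and 2 genes at 0 in both EV libraries had a smaller sum of 19.

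Leading genes of this set had summed counts as high as those of prominent EV members. MMP1, a collagenase, had sums of 520 and 2679, and its EV share was at least 28.7-fold lower in A and 46.5-fold lower in B. ABHD17A, which removes palmitate from proteins, had 1141 and 1152, with bounds of 63.0-fold and 20-fold. CPZ, a carboxypeptidase that binds Wnt proteins, had 1220 and 35, with a bound of 67.3-fold in A and none in B. PDE1B, a calmodulin-dependent phosphodiesterase, had 586 and 419, RPAP1, an RNA polymerase II partner, had 541 and 335, and SLC2A4RG, a transcription factor of the GLUT4 gene, had 369 and 274. Their bounds in B were 7.28-fold, 5.82-fold and 4.76-fold. ATP4A, the gastric proton pump, had 340 and 172, and CTBP1, a corepressor, had 156 and 146. Of the unnamed features, ENSMMUG00000051483 had 525 and 113, ENSMMUG00000063084 had 110 and 72 and ENSMMUG00000065149 had 118 and 34.

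The rest of this set covered many functions. TTC34 had sums of 249 and 31, RANGRF 131 and 106, N4BP1 107 and 35 and STXBP3, a syntaxin partner in exocytosis, 103 and 46. The polarity gene LLGL2 had 77 and 119, the adhesion receptor ADGRG7 had 115 and 80, GFPT1 of hexosamine synthesis had 93 and 68 and TMEM201 had 58 and 74. CFB, complement factor B, had 78 and 79 and the kinesin KIF19 had 74 and 73. The centriolar satellite gene PCM1 had 60 in both animals, the homeobox genes GSC and LHX5 had 67 and 65 and 60 and 59, and LINGO1, a neuronal surface protein, had 23 in both. Sums were equal in both animals for 4 of the 41 genes and within 2 counts for 10 (24.4%). COL5A1, NDST1, CUX1, SP7, DPYSL2, ABR, KCP, KIAA0930, SRPRA and RDH5 had sums between 23 and 73.

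Symbol families were counted among the 1906 named genes with a count in both sums, of which 94 (4.93%) were members. Members made up 2 of 11 cytokine and receptor genes (FLT3LG, CCRL2), 3 of 17 homeobox and forkhead genes (FOXE3, HOXB7, HOXB9), 2 of 15 histone and chromatin genes (KDM5A, RIOX1) and 2 of 16 cadherin and catenin genes (CDH7, CTNNB1). They were 3 of 32 G protein signalling genes (ADRA1B, DRD3, GPRC5B), 3 of 39 ion channel genes (CACNA1H, KCNAB2, KCNT1), 3 of 40 zinc finger genes and 1 each of 13 RNA processing, 17 ubiquitin, 6 mitochondrial, 36 solute carrier and 33 matrix and protease genes. No member came from 31 trafficking genes, 18 growth factor genes or 6 ribosomal protein genes named by those stems. The motor family had 1 of 25, which was MYOG, a transcription factor whose symbol shares the myosin stem. Shares this small rest on 1 to 3 genes each.

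Markers of the cells that could supply plasma vesicles were looked up among the shared genes. None of the erythroid (6 genes), platelet (7), neutrophil and monocyte (7), lymphocyte (6), hepatocyte (8) or endothelial (6) markers was a member. Their summed EV counts were 0 or 1 in each library. In the authors' sums each list held 0 to 3 counts per animal, apart from the endothelial list with 17 and 12. Members were 96 of the 24186 named genes, and 4.93% of those with a count in both sums. Genes with a count in both sums numbered 0 in the erythroid and platelet lists and 4 in the endothelial list. They numbered 1 in each of the other cell lists. At that share, lists this short would hold few or no members, so their absence is no result about the shared genes. The erythroid markers HBA, ALAS2, SLC4A1, AHSP and CA1 were among those at 0 in every column. A marker not listed among the EV counts was taken as 0 there. Of 7 neuron markers, DLG4 was a member and SNAP25, SYT1, MAP2, NRGN and GRIN1 were at 0 throughout. Of 9 vesicle markers CD9 was a member, and CD63, TSG101, PDCD6IP, FLOT1, SDCBP and ANXA2 were at 0 throughout. The EV label was thus matched by transcripts of CD9 alone, and these markers are proteins whose messenger RNA need not be in the vesicle.

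All 96 named members, and all 34 named genes of the EV-negative set, carried symbols of protein-coding genes in RefSeq's T2T-MMU8v2.0 annotation. In that gene order DLG4 and ASGR1 are direct neighbours, and HOXB7 and HOXB9 have 1 protein-coding gene between them. DLG4 and ASGR1 had EV counts of 200 and 4 in animal A, so this pair did not share a level there, and 2 and 1 in animal B. HOXB7 and HOXB9 had 2 and 2 in animal A and 5 and 3 in animal B.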

How the data were processed

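The authors deposited raw counts per gene for the EV library of each animal and whole-number sums of counts for each gene, 1 column per animal, under Ensembl identifiers. STAR was the aligner named by the submitters' processing notes. Its version, the build and annotation, how genes were counted, the strand setting and which libraries were summed are not given in the sources used here. Per the labels' protocols, a Norgen plasma kit and a QIAseq UPXome library kit were used. The authors' statistics gave input reads as counts and, per the file headers, mapped reads as a percent of input. These percents were used only to describe the EV libraries.

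Gene symbols matched 4056 of 4642 genes of the EV table and 24186 of 35432 of the summed table. Genes were read as described in the results, with no normalization beyond shares of a column's total. The interval of a ratio is the exact interval of the EV count over the summed count, divided by the ratio of totals, and assumes that the EV count is part of the sum. It was tested only on counts simulated as part of the sums, so that assumption was not itself tested. Reads of near-identical or overlapping genes cannot be told apart. Role groups were assigned by hand from general knowledge. Counts, and for most of these sums and ratios, were given for members with 5 or more counts in both EV libraries, the 10 with the highest mean EV share, the 10 highest and lowest ratios, members of the fixed lists and the 20 leading EV-negative genes; the other members are named in their group, apart from some that are not reported here. The members, lists and thresholds were chosen with earlier results of these data known. Python 3.11.15, pandas 2.3.3 and scipy 1.17.1 were used. Sequences are not used here.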

Additional observations from a re-analysis of the deposited data

Results flagged for a closer look

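In 4 shared genes the EV share lay above the summed share in one animal and below it in the other, with counting intervals on opposite sides of 1. RIOX1 had a ratio of 1.17 in animal A and 0.00729 in animal B, ONECUT3 2.15 and 0.337, and TSKU 1.48 and 0.173. FAM186B went the other way, with 0.257 in A and 6.85 in B. No test of these differences between animals was made, since each value rests on 1 EV library. RIOX1 and TSKU had 1 count in the EV library of B, and FAM186B had 2 in that of A.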

How the results depend on the processing

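No paired analysis was possible because gene counts were used from 1 group of libraries alone and the summed columns belong to no fraction. Each ratio sets an EV count against the sum of the same animal, and no test was made on the 2 ratios. The number of shared genes fell from 113 to 47 at a minimum of 2 counts in both EV libraries, to 18 at a minimum of 5, and to 66 when the EV library of animal A was thinned to the total of animal B. The 51 members 2-fold or more above their summed share in both animals became 17 at a minimum of 2 EV counts, 5 with 20 or more in both sums, 33 against the sum less the EV count and 30 at 3-fold, and ranged from 57 to 86 when 1 animal was left out (86 without the EV library of A). The 1 member 2-fold below, DRD3, became 0 at a minimum of 2 EV counts, since it has 1 count in B, and 4 at 1.5-fold. It ranged from 7 to 10 when 1 animal was left out. With 20 or more in both sums, the median log2 ratio fell from 1.01 to 0.25 in animal A and from 2.29 to 0.78 in animal B. No median changed sign. The 41 EV-negative genes became 87 at 10 or more in both sums and 22 at 50 or more, and ranged from 68 to 84 when 1 animal was left out. They held 13.4% of the sum in A and 14% in B at 10 or more, 8.41% and 11.6% at 50 or more, and 14.5% and 13.6% of the sum less the EV count. The shared genes held 68.4% of the sum in A and 71.0% in B. These became 42.5% and 46.1% at a minimum of 2 EV counts, 54.0% and 55.3% without the leading feature, and 66.0% in A against the sum less the EV count. The cause of changes that do not follow from the smaller number of genes or animals was not tested. The low number of gene counts limits the list, since 66 of its genes have a single count in a library.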
